A study of Mus musculus with 9 samples.

Results

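Lipoprotein lipase (Lpl) and 9 other genes of fatty acid uptake and lipid droplets were followed in mouse liver across 3 levels of dietary iron. The others were Cd36, Plin2, Plin4, Cidea, Cidec, Hsd17b11, Hsd17b13, Pnpla2 and Pnpla3. The genes were found by symbol, 10 of the 23420 gene symbols in the count tables, and all 10 were among the 13020 genes that passed the low-count filter. The set was chosen from measured values of these livers as well as from function, since Lpl and Hsd17b11 were already known to be called in high-iron against sufficient-iron livers. Their values in that comparison are therefore a description and not a test, and the remaining comparisons share either its high-iron or its sufficient-iron libraries.

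Livers came from 9 male C57BL/6 mice, 3 per diet, and each mouse gave 1 bulk RNA-seq library. From 5 weeks of age the mice ate a soy-free AIN-93G diet with 2.5 mg iron per kg (low), 37.5 mg per kg (sufficient) or 1000 mg per kg (high), for 50 days, and livers were taken at 12 weeks of age. The labels give no genotype for single samples, and the protocol describes the wild-type mice as C57BL/6 males; hemojuvelin knockout mice that it also mentions were not analysed here. Each library carries the name of its diet and its own title number: 1, 5 and 9 for low, 2, 6 and 10 for sufficient, and 4, 8 and 12 for high.

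Depth was 22 M to 33.8 M gene reads per library. The ribosomal precursor RNA Rn45s took 43.7% of the gene reads in low 1 and 40.5% in high 12, and 12.5% to 23.8% in the other libraries. The hepatocyte markers Alb, Ttr, Apoa1, Cps1 and Hnf4a had reads in all 9 libraries, with a summed level of 58000 to 66600 CPM (gene reads scaled to a common library size, the usual CPM unit) in low, 45200 to 64900 CPM in sufficient and 43000 to 53000 CPM in high. In whole liver, fewer cells of a type and less RNA per cell cannot be told apart.

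Lipoprotein lipase frees fatty acids from circulating triglyceride-rich particles, and the surface receptor Cd36 helps cells take them up. Inside the hepatocyte, fatty acids that are esterified to triglyceride are stored in droplets coated by perilipins, enlarged by the Cide proteins, decorated by the short-chain dehydrogenases Hsd17b11 and Hsd17b13, and opened by patatin-like lipases such as Pnpla2. Adult liver is known for low Lpl, with most of this lipase made in fat, heart and muscle.

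Lpl and Hsd17b11 were highest in all 3 high-iron livers, and the other 8 genes did not separate the high from the sufficient diet. In high against sufficient livers, Lpl and Hsd17b11 were called by edgeR's quasi-likelihood test at an adjusted p under 0.05, where 28 of 13020 genes (0.215%) were called in all. These are the genes and the comparison by which the set was chosen. The 3 libraries of one diet lay entirely above or below those of the other for 2 of the 10 genes, beside 17.8% of all tested genes. The log2 fold change was positive for 5 and negative for 5, with a median of 0.04 against -0.01 over all genes, and the 8 genes other than Lpl and Hsd17b11 had a median of -0.10. In low against sufficient livers, 0 of the 10 genes and 0 of 13020 genes (0%) were called by edgeR, while 1458 genes had an unadjusted p under 0.05 and DESeq2 called 89. Of the 10 genes, 1 had groups that did not overlap in that comparison, Hsd17b11, beside 16.6% of all genes. In high against low livers, Lpl and Hsd17b11 were again the 2 called members, where 0.507% of all genes were called, and 2 of the 10 did not overlap between these diets, beside 15.7% of all genes. Lpl stayed past the threshold there in 15 of 20 alternatives, its adjusted p by edgeR reaching 0.0855 without high 8. Hsd17b11 stayed past it in 11 of 20, at 0.0359 with all libraries, 0.0627 with consecutive title numbers as a block and up to 0.154 without high 4.

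**Figure D1:**
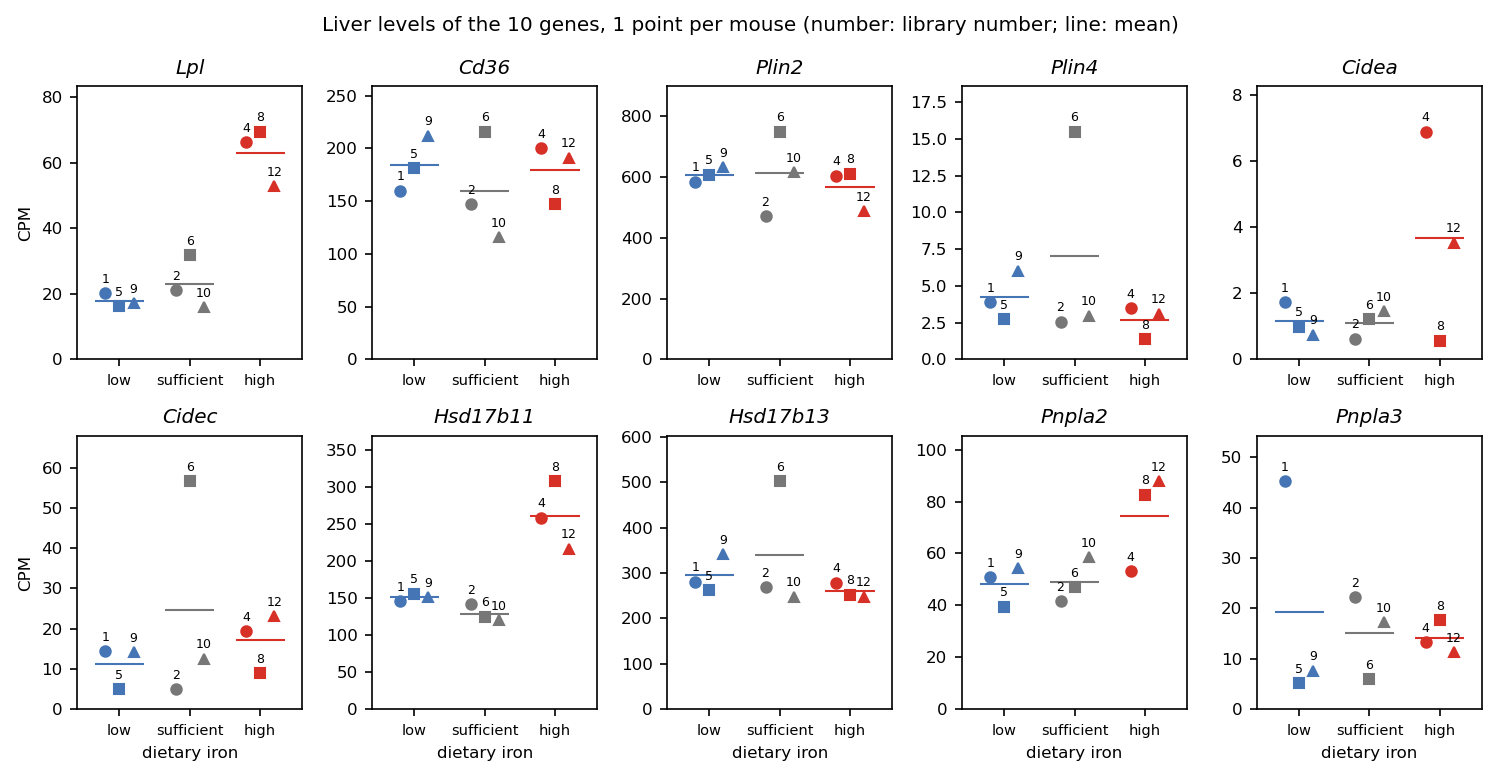
Level of each of the 10 genes in CPM (vertical axis, from 0, own scale per gene) in low, sufficient and high livers (horizontal axis). Each point is 1 mouse with its library number, and the line is the mean of 3. The high points of Lpl, at 52.9 to 69.5 CPM, and of Hsd17b11, at 217 to 308 CPM, lie above all others, while single libraries stand out for Plin4, Cidea, Cidec, Hsd17b13 and Pnpla3.

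Lpl was higher in every high-iron liver than in any other. Its level was 20.2, 16.2 and 17.1 CPM in low 1, 5 and 9, 21.1, 31.8 and 15.9 CPM in sufficient 2, 6 and 10, and 66.2, 69.5 and 52.9 CPM in high 4, 8 and 12. The lowest high library stood well above the highest of the other 6, sufficient 6, and the low and sufficient livers overlapped. The mean was 62.9 ± 8.79 CPM in high, against 22.9 ± 8.1 CPM in sufficient livers (SD, n = 3 each), a log2 fold change of 1.45 ± 0.22 (SE). Low livers averaged 17.8 ± 2.1 CPM (SD, n = 3), and the fold change was -0.37 ± 0.22 for low against sufficient and 1.82 ± 0.23 for high against low. The high against sufficient value ran from 1.24 to 1.77 over 20 alternative analyses and stayed past the threshold in 11 of them. The adjusted p by edgeR was above the threshold without high 4 (0.116), high 8 (0.222), high 12 (0.108), sufficient 2 (0.105), sufficient 10 (0.0825), low 5 (0.056) or low 9 (0.0589), with both Rn45s-rich libraries left out (0.0864), and in the fit of these 2 diets alone (0.084).

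Cd36, the fatty acid receptor that stands beside Lpl in uptake, did not separate the diets. It had 160, 181 and 212 CPM in low 1, 5 and 9, 147, 216 and 116 CPM in sufficient 2, 6 and 10, and 200, 147 and 191 CPM in high 4, 8 and 12. The 3 diets overlapped throughout, and sufficient livers held both the highest and the lowest library. The log2 fold change was 0.17 ± 0.22 in high against sufficient, 0.21 ± 0.22 in low against sufficient and -0.04 ± 0.22 in high against low (SE). Cd36 reads per Lpl read were 7.92, 11.2 and 12.4 in low, 6.99, 6.79 and 7.28 in sufficient and 3.03, 2.11 and 3.61 in high livers. That ratio was lowest in the 3 high libraries and highest in the 3 low ones. Its denominator is Lpl, by whose values the set was chosen.

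Neither droplet coat gene separated the diets. Plin2, the perilipin found on most hepatocyte droplets, had 585, 608 and 632 CPM in low 1, 5 and 9, 471, 750 and 616 CPM in sufficient 2, 6 and 10, and 604, 611 and 488 CPM in high 4, 8 and 12. Its diets overlapped, and the low livers lay closest together. The log2 fold change was -0.11 ± 0.17 in high against sufficient and -0.01 ± 0.17 in low against sufficient (SE). Plin4, a perilipin best known from fat cells, had 3.9, 2.71 and 6.03 CPM in low, 2.55, 15.5 and 2.95 CPM in sufficient, and 3.48, 1.38 and 3.1 CPM in high livers. Sufficient 6 alone carried the sufficient mean of 7.01 ± 7.38 CPM (SD, n = 3). The Plin4 log2 fold change was -1.43 ± 0.67 (SE) in high against sufficient and -0.07 without sufficient 6, and in low against sufficient it was -0.74 ± 0.65 and 0.61 without that library.

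The sequences before the RefSeq starts of Cd36 and Plin2 are shown because both hold a direct repeat of AGGTCA with 1 base between the copies. AGGTCA is the half-site read by nuclear receptors such as the PPARs. A match allowed at most 2 mismatches on either strand, and both matches here have 2 mismatches and lie on the strand opposite to the gene. The 250 bases before each gene's annotated start were searched, from RefSeq on GRCm38.p6, and 3.24% of all 32851 promoters of that length hold such a repeat. In Cd36 (chr5:17835897-17836146, minus strand) it lies 63 to 51 bases before the start, and in Plin2 (chr4:86670060-86670309, minus strand) 225 to 213 bases before it. The Cd36 window lies inside the gene as GENCODE annotates it (chr5:17781690-17888801). Its RefSeq start is thus internal to that annotation and not at the gene's outer 5′ end. The capitals mark the repeat and a CCAAT box, which 33.8% of promoters hold on either strand. Sequences run 5′ to 3′ on the gene's strand, ending at the base before the start.
Cd36: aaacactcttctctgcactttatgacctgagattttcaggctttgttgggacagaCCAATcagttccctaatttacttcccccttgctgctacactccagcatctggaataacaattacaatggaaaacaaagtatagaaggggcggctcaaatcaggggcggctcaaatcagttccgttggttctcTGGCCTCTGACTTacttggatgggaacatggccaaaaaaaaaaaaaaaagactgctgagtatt
Plin2: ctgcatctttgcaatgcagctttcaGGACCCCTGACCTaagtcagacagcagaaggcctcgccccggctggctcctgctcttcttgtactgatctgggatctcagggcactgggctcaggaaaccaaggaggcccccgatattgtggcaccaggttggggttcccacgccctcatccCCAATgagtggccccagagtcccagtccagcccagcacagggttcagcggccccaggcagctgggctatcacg
A match is a description of letters and not a bound site, and the level of neither gene separated the diets.

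The Cide genes, whose proteins sit at contacts between droplets and help them fuse, varied widely among livers of the same diet. Cidea had 1.72, 0.988 and 0.74 CPM in low 1, 5 and 9, 0.619, 1.22 and 1.46 CPM in sufficient 2, 6 and 10, and 6.89, 0.566 and 3.53 CPM in high 4, 8 and 12. High 4 and high 12 were above all 7 other libraries, and high 8 was the lowest of all 9. These levels rest on 206, 18 and 66 reads in high 4, 8 and 12 and on 17 to 53 reads in the others. The Cidea log2 fold change in high against sufficient was 1.71 ± 0.68 (SE), or 0.82 without high 4 and 2.22 without high 8. Cidec had 14.4, 4.97 and 14.2 CPM in low, 4.96, 56.6 and 12.5 CPM in sufficient, and 19.4, 8.87 and 23.1 CPM in high livers. Sufficient 6 had 2.45 times the Cidec level of the next library, high 12. With it, the Cidec log2 fold change was -0.55 ± 0.76 (SE) in high against sufficient and -1.17 ± 0.78 (SE) in low against sufficient; without it the values were 0.95 and 0.33. Within the high diet, both genes were lowest in high 8, the library with the highest Lpl.

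Of Hsd17b11 and Hsd17b13, neighbours on mouse chromosome 5 that encode related droplet-bound dehydrogenases, only Hsd17b11 separated the diets. Hsd17b11 was among the genes by whose values the set was chosen, and the difference between the neighbours was not tested. Hsd17b11 had 146, 156 and 151 CPM in low 1, 5 and 9, 142, 125 and 120 CPM in sufficient 2, 6 and 10, and 259, 308 and 217 CPM in high 4, 8 and 12. The 3 diets did not overlap, with high livers highest and sufficient livers lowest. The mean was 261 ± 45.7 CPM in high, against 129 ± 11.4 CPM in sufficient livers (SD, n = 3 each), a log2 fold change of 1.02 ± 0.14 (SE). Low livers averaged 151 ± 5.01 CPM (SD, n = 3), 0.22 ± 0.14 above sufficient on the log2 scale, and high livers were 0.79 ± 0.14 above low. The high against sufficient value ran from 0.88 to 1.13 over the 20 alternatives and stayed past the threshold in 15. The adjusted p by edgeR was 0.0987 without high 4, 0.17 without high 8, 0.0669 without sufficient 6, 0.0825 without sufficient 10 and 0.0512 without low 9.

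Hsd17b13 had 281, 262 and 341 CPM in low 1, 5 and 9, 269, 502 and 248 CPM in sufficient 2, 6 and 10, and 279, 252 and 248 CPM in high 4, 8 and 12. All 3 diets overlapped, and sufficient 6 was again the highest library, at 1.47 times the next. The log2 fold change was -0.39 ± 0.24 (SE) in high against sufficient and 0 without sufficient 6. Hsd17b13 reads per Hsd17b11 read were 1.93, 1.68 and 2.26 in low, 1.89, 4.01 and 2.06 in sufficient and 1.08, 0.817 and 1.14 in high livers. The 3 high libraries were the lowest of the 9 in this ratio. High 8 was the single liver with more reads from Hsd17b11 than from Hsd17b13. The denominator of the ratio is Hsd17b11, by whose values the set was chosen.

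**Figure D2:**
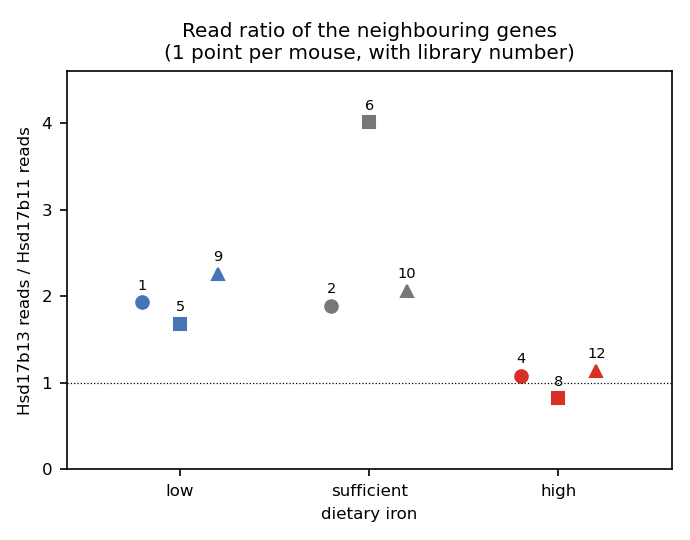
Hsd17b13 reads divided by Hsd17b11 reads (vertical axis, no unit) in each of the 9 libraries by diet (horizontal axis); each point is 1 mouse with its library number, and the dotted line marks equal reads. The 3 high livers lie between 0.817 and 1.14, below the other 6, which start at 1.68, and sufficient 6 is highest at 4.01.

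The sequences before the RefSeq starts of this pair are shown because the genes are adjacent and point the same way. In GENCODE's GRCm38 annotation both lie on the minus strand with 12351 bases between them, a gap that holds 1 annotated gene, not protein coding. In the same 250-base window, Hsd17b11 (chr5:104021797-104022046) holds a CCAAT box 115 to 111 bases before the start and the C/EBP core TTGCNNAA 28 to 21 bases before it, both in capitals. The CCAAT box is in 33.8% of all promoters on either strand and that core in 9.56%. The Hsd17b13 window (chr5:103977389-103977638) holds neither of these, nor the AGGTCA repeat, the TATA core TATAAA (12.4% of promoters) or the E-box CACGTG (6.02%), so it has no capitals. GENCODE places the 5′ ends of Hsd17b11 and Hsd17b13 at 104021919 and 103977410, inside these windows. The part of each window nearest the RefSeq start is thus within the GENCODE gene.
Hsd17b11: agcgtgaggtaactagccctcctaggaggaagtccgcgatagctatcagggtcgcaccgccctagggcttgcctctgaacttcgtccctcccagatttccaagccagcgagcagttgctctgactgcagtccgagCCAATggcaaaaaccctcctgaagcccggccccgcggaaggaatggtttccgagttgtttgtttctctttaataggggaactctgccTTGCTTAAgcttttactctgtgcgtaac
Hsd17b13: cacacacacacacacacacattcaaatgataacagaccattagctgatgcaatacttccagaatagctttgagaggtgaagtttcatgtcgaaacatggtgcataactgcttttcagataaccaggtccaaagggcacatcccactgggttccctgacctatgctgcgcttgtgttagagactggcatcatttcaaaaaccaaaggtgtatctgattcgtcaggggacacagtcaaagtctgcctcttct
These matches describe letters and not bound sites, and their part in the values by diet was not tested. RefSeq windows were matched for 8 of the 10 genes, Lpl and Cidea being the others. Among the windows not printed, Plin4 and Pnpla3 hold a CCAAT box, 1 of the 2 annotated starts of Cidec holds the C/EBP core, and Pnpla2 holds none of the 5 motifs searched.

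Of the lipases, Pnpla2, which takes the first fatty acid off stored triglyceride, was highest in livers of the high diet. It had 50.8, 39.5 and 54.3 CPM in low 1, 5 and 9, 41.7, 47 and 58.5 CPM in sufficient 2, 6 and 10, and 53.1, 82.7 and 87.8 CPM in high 4, 8 and 12. High 8 and high 12 exceeded all other libraries, but high 4 lay inside the range of the sufficient and low livers. The mean was 74.5 ± 18.7 CPM in high, against 49.1 ± 8.58 CPM in sufficient livers (SD, n = 3 each), with a log2 fold change of 0.60 ± 0.20 (SE) that ran from 0.46 to 0.80 over the alternatives and was past the threshold in 0 of 20.

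Pnpla3, a droplet protein of the same family whose level in mouse liver is known to follow feeding and carbohydrate, varied among mice of 1 diet more than between diets. It had 45.2, 5.19 and 7.58 CPM in low 1, 5 and 9, 22.2, 5.91 and 17.2 CPM in sufficient 2, 6 and 10, and 13.3, 17.6 and 11.3 CPM in high 4, 8 and 12. Low livers held both the highest and the lowest library, and low 1, the highest, was also the library with the largest Rn45s share, whose part in the result was not tested. The log2 fold change in low against sufficient was 0.31 ± 0.74 (SE), and -1.24 without low 1. In high against low it was -0.40 ± 0.74 (SE), 1.15 without low 1, and 1.14 without low 1 and sufficient 6, where edgeR's adjusted p was 0.0317.

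**Figure D3:**
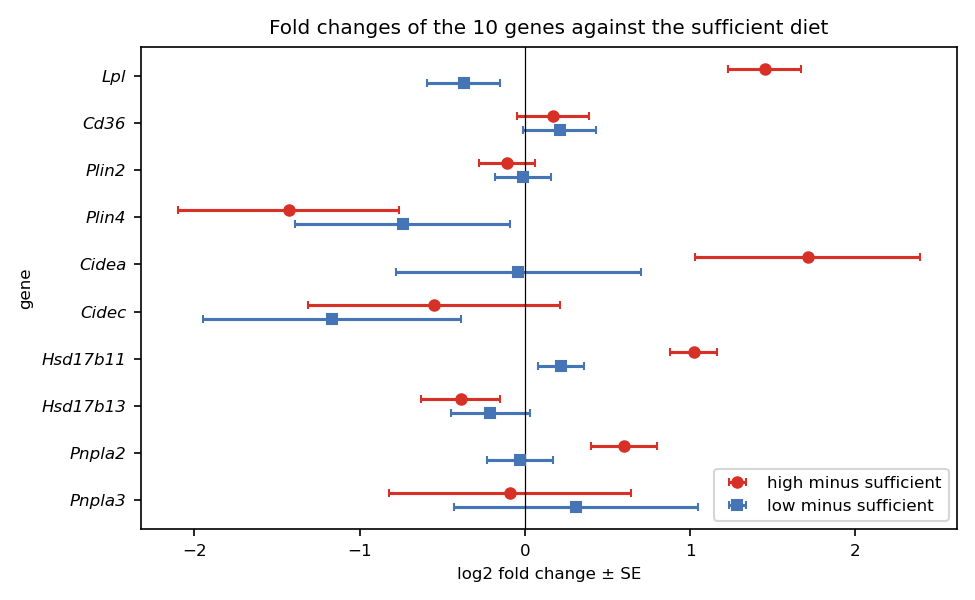
Log2 fold change with its SE (horizontal axis) for each of the 10 genes (vertical axis), for high minus sufficient (circles) and low minus sufficient (squares), both against the same 3 sufficient libraries. Lpl at 1.45 and Hsd17b11 at 1.02 have short bars in high minus sufficient, while Plin4, Cidea, Cidec and Pnpla3 have SEs of 0.65 or more in both.

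Per kilobase of the longest principal transcript, the genes differed in level far more than the diets did. In sufficient livers the order of mean levels was Plin2 at 324 CPM per kb, Hsd17b13 at 199, Hsd17b11 at 70.8, Cd36 at 47, Pnpla2 at 27.3, Cidec at 14.4, Pnpla3 at 11.5, Lpl at 5.57, Plin4 at 1.22 and Cidea at 0.987 CPM per kb. In high livers the 15.3 CPM per kb of Lpl still lay far below Plin2 at 301 CPM per kb. Neighbours in this order overlapped in their sufficient libraries, except that the lowest sufficient library of Hsd17b13 lay above the highest of Hsd17b11, and likewise Hsd17b11 above Cd36, Cd36 above Pnpla2 and Lpl above Plin4.

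Across the 9 libraries, sufficient 6 held the highest value of 5 of the 10 genes: Cd36, Plin2, Plin4, Cidec and Hsd17b13. High 8 held the highest value of Lpl and Hsd17b11, high 4 that of Cidea, high 12 that of Pnpla2 and low 1 that of Pnpla3. Sufficient 6 was also the deepest library, at 33.8 M reads, with the smallest Rn45s share, and had the highest Pparg, a nuclear receptor that drives droplet genes in fat, at 24 CPM against 11.6 and 12.5 CPM in sufficient 2 and 10. Stellate cell markers (Lrat, Rgs5, Des, Col1a1 and Dcn) summed to 278 CPM in sufficient 6, against 148 and 173 CPM in sufficient 2 and 10. The part of depth, of Rn45s, of Pparg or of stellate cells in these values was not tested. Centred on their own means, the log2 profiles of Plin2 and Hsd17b13 were the closest pair of members, with a root-mean-square difference of 0.226, followed by Cd36 and Hsd17b13 at 0.265 and Cd36 and Plin2 at 0.29. Hsd17b11 was closest to Pnpla2, at 0.362, and its distance to Lpl was 0.496, since Lpl ranged more widely. The farthest pair was Plin4 and Pnpla3, at 1.54. These distances describe 9 libraries that share their diets and depths.

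**Figure D4:**
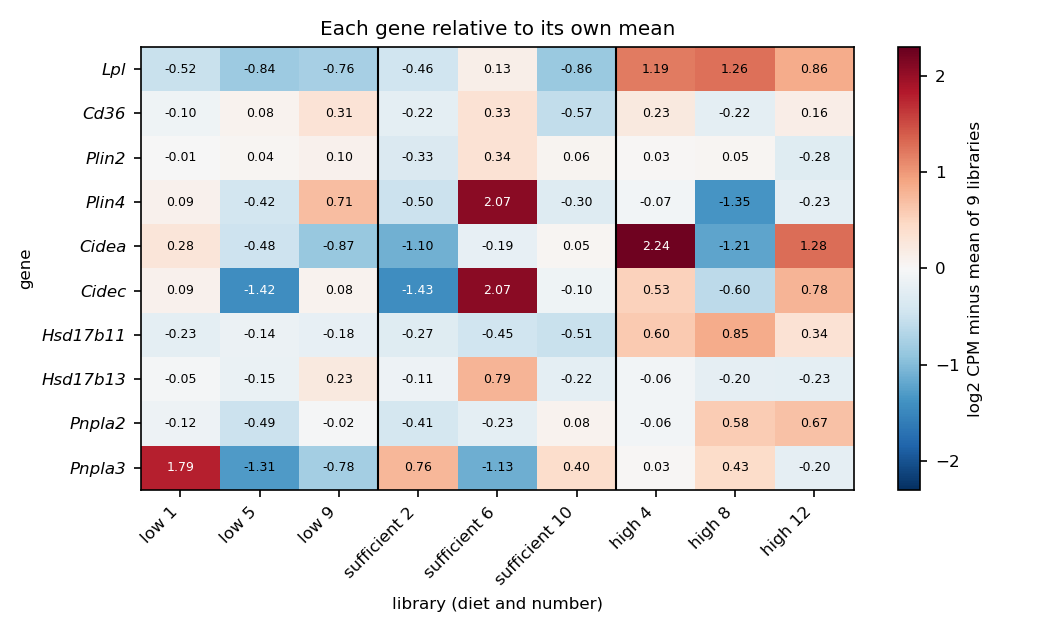
Log2 CPM of each gene (vertical axis) minus its own mean over the 9 libraries, printed in each cell, for the libraries in order of diet (horizontal axis); red is above and blue below the mean. Lpl and Hsd17b11 are positive in all 3 high livers, from 0.86 to 1.26 for Lpl, and sufficient 6 reaches 2.07 for both Plin4 and Cidec.

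Genes whose profile over the 9 libraries was most like that of Lpl were sought among 10997 named genes averaging 1 CPM or more, by the same root-mean-square difference. The closest was Ehhadh, the peroxisomal bifunctional enzyme of fatty acid oxidation, at 0.31, with means of 368, 346 and 1150 CPM in low, sufficient and high livers. Cyp4a31, a fatty acid hydroxylase whose counts are uncertain among its close paralogs, came next at 0.378, then the transporter Abcc4 at 0.384, the imprinted gene Peg3 at 0.384 and Cyp4a14 at 0.394. The root-mean-square size of the Lpl profile itself was 0.835. Lpl and Hsd17b11 were chosen for their values in high livers, so a search over the same libraries favours genes that are high in that diet. Shared control of these genes was not tested. For Hsd17b11, whose profile size was 0.451, the nearest were Gstm4, a glutathione transferase with close paralogs, at 0.149, the peroxisomal thiolase Acaa1b at 0.171, the phosphatidylcholine transfer protein Pctp at 0.196 and Nlrp12 at 0.197.

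The other genes of the pathway were taken from 8 textbook lists of 96 genes, 91 of them tested. In high against sufficient livers edgeR called 0 of the 91, limma-voom 0 and DESeq2 2, and 13 (14.3%) had an unadjusted p under 0.05 beside 9.28% of all tested genes. Log2 fold changes were positive for 60 and negative for 31, with a median of 0.12 against -0.01 over all genes. In low against sufficient livers edgeR called 0, limma-voom 0 and DESeq2 7, with 18 (19.8%) at an unadjusted p under 0.05 beside 11.2% of all genes. There too 60 values were positive and 31 negative, with a median of 0.11. Both comparisons share the sufficient libraries. In high against low livers edgeR called 0, limma-voom 0 and DESeq2 8, with 19 (20.9%) under that p beside 9.65%. Values between these 2 diets were positive for 34 and negative for 57, with a median of -0.06.

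**Figure D5:**
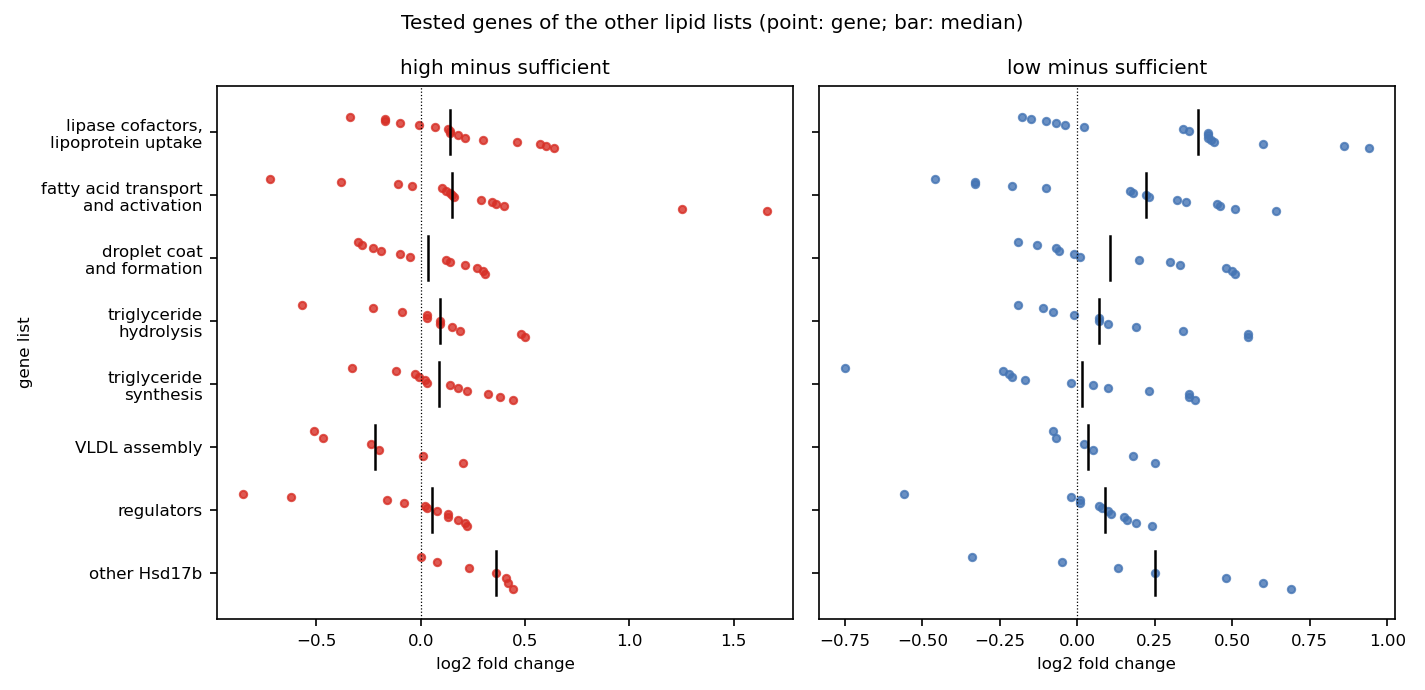
Log2 fold change (horizontal axis) of each tested gene in the 8 other lipid lists (vertical axis), for high minus sufficient in the left panel and low minus sufficient in the right; each point is 1 gene and the bar is the list's median. In high minus sufficient the list medians run from -0.22 for VLDL assembly to 0.36 for the other Hsd17b genes, and no gene passed the threshold in edgeR with all 9 libraries and the low-count filter.

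Around Lpl itself, 16 cofactor and lipoprotein uptake genes were tested. Angptl4, a secreted inhibitor of lipoprotein lipase, had 52.1, 75.2 and 81.2 CPM in low, 50, 46.5 and 57.2 CPM in sufficient and 72.3, 83.5 and 77.2 CPM in high livers. High and sufficient livers did not overlap, with a log2 fold change of 0.60 ± 0.16 (SE, edgeR adjusted p = 0.245, and 0.0479 without low 1). Lipg, the endothelial lipase, averaged 26 ± 3.38 CPM in high, against 17.4 ± 1.97 CPM in sufficient livers (SD, n = 3 each), with a log2 fold change of 0.57 ± 0.16 (SE, edgeR adjusted p = 0.245). Lmf1, the factor that folds these lipases, averaged 27.8 ± 2.85 CPM in low, against 20.7 ± 1.5 CPM in sufficient livers (SD, n = 3 each, log2 fold change 0.42, edgeR adjusted p = 0.446). Gpihbp1, which anchors the lipase to capillaries, was looked up after its value was seen and averaged 15.2 ± 3.07 CPM in high, against 14.5 ± 0.315 CPM in sufficient livers (SD, n = 3 each).

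Beside Cd36, 15 genes of fatty acid transport and activation were tested, 11 with a positive and 4 with a negative value in high against sufficient livers. In low against sufficient livers 10 were positive and 5 negative. Slc27a1, a fatty acid transport protein, had 4.99, 4.1 and 4.12 CPM in low, 3.02, 2.44 and 4.06 CPM in sufficient and 5.45, 8.02 and 9.19 CPM in high livers. No high library overlapped the others, and the log2 fold change in high against sufficient was 1.25 ± 0.24 (SE, edgeR adjusted p = 0.081), which passed the threshold with no low-count filter (edgeR adjusted p = 0.0437) and in DESeq2 (adjusted p = 0.000392). Acsl1, the main acyl-CoA synthetase of liver, averaged 908 ± 53.4 CPM in high, against 688 ± 49.1 CPM in sufficient livers (SD, n = 3 each), with a log2 fold change of 0.40 ± 0.11 (SE, edgeR adjusted p = 0.245), and was the second gene called by DESeq2 (adjusted p = 0.0081). It was also higher in each low than in each sufficient liver, with 877 ± 31.8 CPM in low livers (SD, n = 3). The log2 fold change there was 0.35 (DESeq2 adjusted p = 0.0144). Slc27a5, the liver's bile acid and fatty acid ligase, averaged 583 ± 34.7 CPM in low, against 426 ± 41.9 CPM in sufficient livers (SD, n = 3 each, log2 fold change 0.45, edgeR adjusted p = 0.446). DESeq2 called it in low against sufficient livers (adjusted p = 0.00329).

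The partners of Pnpla2 had fold changes of opposite sign in high against sufficient livers, and edgeR called neither there. Abhd5, its coactivator, had 49.7, 34.5 and 34.1 CPM in low, 43.4, 29.1 and 39.9 CPM in sufficient and 60.8, 49.8 and 48.6 CPM in high livers, with a log2 fold change in high against sufficient of 0.50 ± 0.19 (SE, edgeR adjusted p = 0.458). G0s2, its inhibitor, had 146, 77.8 and 131 CPM in low, 86.2, 61.6 and 94.3 CPM in sufficient and 51.6, 41.3 and 70.1 CPM in high livers. G0s2 did not overlap between high and low livers, with a log2 fold change of -1.13 ± 0.26 (SE, edgeR adjusted p = 0.104). High and sufficient livers did overlap for G0s2, with a log2 fold change of -0.57 ± 0.26 (SE, edgeR adjusted p = 0.54). The esterase Aadac averaged 453 ± 23.7 CPM in low, against 310 ± 38.8 CPM in sufficient livers (SD, n = 3 each, log2 fold change 0.55, edgeR adjusted p = 0.446). With all 9 libraries and no block, none of these 3 genes passed the threshold in edgeR. DESeq2 called G0s2 (adjusted p = 0.0023) and Aadac (adjusted p = 0.00365) in high against low livers. It also called Aadac in low against sufficient livers (adjusted p = 0.00166). G0s2 was called in high against low livers with consecutive title numbers as a block (-1.11, edgeR adjusted p = 0.0339), and Abhd5 (0.63, edgeR adjusted p = 0.0263) and Aadac (-0.56, edgeR adjusted p = 0.0475) were called there with low 1 and sufficient 6 left out.

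Among the remaining lists, the droplet coat and formation genes had 6 positive and 6 negative values in high against sufficient livers, including Plin3 at -0.30, Pcyt1a at -0.23 and Mettl7b at 0.14 (0.01 without high 8) on the log2 scale. Of the 12 tested genes of triglyceride synthesis, Dgat1, which adds the last fatty acid, had a log2 fold change of 0.38 and Mogat1 of 0.32 (0.19 without high 4). Of the 6 genes of VLDL assembly, which loads triglyceride for export, 4 had negative values, with Apob at -0.47 ± 0.16 (SE, edgeR adjusted p = 0.418) and Tm6sf2 at -0.51 ± 0.16 (SE, edgeR adjusted p = 0.35), while Sar1b was at 0.20 (0.12 without sufficient 6). The regulator Pparg stood at -0.62 in high against sufficient livers and at -0.20 without sufficient 6. Nr4a1 stood at -0.85, and Ppargc1b at 0.21, with -0.15 without high 12 and 0.55 without high 4. Among the other Hsd17b genes, 6 of 7 were positive there, with Hsd17b2 at 0.44, Hsd17b10 at 0.42 and Hsd17b7, an enzyme of cholesterol synthesis, at 0.36. Without sufficient 6, Hsd17b2 stood at 0.23 and Hsd17b10 at 0.22. In low against sufficient livers, 5 of the 7 were positive. Hsd17b7 also had the lowest adjusted p in high against low livers of the 91 tested, at 0.70 ± 0.14 on the log2 scale (SE, edgeR adjusted p = 0.0544). It was called there without low 1 (0.83, edgeR adjusted p = 0.0222) or with no low-count filter (edgeR adjusted p = 0.0437), and by DESeq2 (adjusted p = 0.000248).

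Several of the 10 genes are best known from fat tissue, so adipocyte markers are given beside them. The fat hormone gene Lep and the adipocyte perilipin Plin1 had 0 reads in all 9 libraries. The summed level of the 7 markers (Adipoq, Lep, Retn, Cfd, Fabp4, Plin1 and Ucp1) was 12.7 to 13.8 CPM in low, 6.07 to 10.8 CPM in sufficient and 7.46 to 15.2 CPM in high livers, and Adipoq, Retn and Ucp1 had 0 to 4 reads each in any library. Cfd had 5.3, 0.549 and 2.54 CPM in low 1, 5 and 9, and 0.51, 0.99 and 0.938 CPM in sufficient 2, 6 and 10. In high 4, 8 and 12 it had 5.85, 0.975 and 5.88 CPM. Cfd and Fabp4, the 2 markers that passed the low-count filter, had positive log2 fold changes in high against sufficient livers (median 1.29). Both were also positive in low against sufficient livers (median 1.13), with 0 called in either comparison. High 8, with the highest Lpl, had the lowest sum among the high livers, at 7.46 CPM, and sufficient 6 had the highest of its diet, at 10.8 CPM. Fabp4 alone made up most of both sums, with 6.39 CPM in high 8 and 9.78 CPM in sufficient 6. The part of fat cells in these values was not tested. Muscle markers summed to 0 to 0.078 CPM in low, 0.023 to 0.0729 CPM in sufficient and 0 to 0.0315 CPM in high livers. Macrophage markers, whose cells also make Lpl, summed to 118 to 275 CPM in low, 270 to 463 CPM in sufficient and 242 to 298 CPM in high livers, with 0 of the 10 markers at 0. All 10 macrophage markers had a lower fitted level in high than in sufficient livers (median log2 fold change -0.52) and in low than in sufficient livers (median -0.81), while 0 of 10 were called in either comparison. The low value leans on low 1, the library richest in Rn45s, where these markers summed to 118 CPM. They summed to 259 and 275 CPM in low 5 and 9, beside 270 CPM in sufficient 10. Endothelial markers summed to 110 to 189, 165 to 194 and 142 to 206 CPM and stellate cell markers to 128 to 176, 148 to 278 and 140 to 199 CPM in low, sufficient and high livers, with 0 of 5 at 0 in either list. The summed levels of high and sufficient livers overlapped for these last 3 cell types, and their part in the level of Lpl was not tested.

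Overlapping annotation makes 3 of the 10 genes uncertain, because the strand setting of the counts is not given in the sources used here. Pnpla3 shares 5323 bases with the non-coding transcript Gm49513 on its own strand, Cidea shares 500 bases with B430212C06Rik on the opposite strand, and Plin4 shares 17 bases with Hdgfl2 on the opposite strand.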

How the data were processed

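The authors deposited whole-number counts, unnormalised, with 1 entry for each gene symbol in each library's table; per the submitters' processing notes FastQC was used, and builds mm10 and mm9 are named without a role. No aligner, counter, annotation or strand setting is given in the sources used here. Per the labels' protocol the 3 mice of a diet were separate animals. The 5 category entries of each table were left out of library sizes and tests; reads outside genes made up 13.4% to 25.9% of uniquely aligned reads.

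The tests ran in edgeR 4.0.16 (R 4.3.3): filterByExpr, TMM scaling, and 1 robust quasi-likelihood fit over the 9 libraries, without covariates beside diet. Benjamini-Hochberg adjustment covered the 13020 genes of each comparison, with a threshold of 0.05. CPM used the scaled library sizes, and log2 CPM a prior count of 2. Fold changes are on the log2 scale. Each SE of a fold change was derived as its absolute value divided by the square root of the quasi-likelihood F. limma 3.58.1 (voom) and DESeq2 1.42.0 were alternatives. Scripts were tested on simulated data. Transcript lengths and positions came from GENCODE M21 (GRCm38), and promoters from RefSeq.

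The members and lists were chosen with earlier results of these data known. Named beside the 10 members are, per other list, every gene past the threshold in any comparison, otherwise the 2 lowest unadjusted p in high against sufficient and the 1 lowest in low against sufficient, and the 5 genes most like Lpl and Hsd17b11, of which 1 is not reported here; others are said to be chosen after their values were seen.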

Additional observations from a re-analysis of the deposited data

How the results depend on the processing

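Genes called in high against sufficient livers numbered 28, and 45 with no low-count filter, 207 with DESeq2, 17 with both Rn45s-rich libraries (low 1 and high 12) left out, 63 with low 1 and sufficient 6 left out, and 0 to 56 with any 1 library left out, reaching 0 without high 4 and without high 8. In high against low livers 66 were called, and 351 with DESeq2, 40 with consecutive title numbers as a block, 31 without the Rn45s-rich libraries, 288 without low 1 and sufficient 6, and 0 to 112 with 1 library left out. In low against sufficient livers 0 were called, and 89 with DESeq2, 1 without the Rn45s-rich libraries, 1 without low 1 and sufficient 6, and 0 to 1 with 1 library left out. Of the other lipid genes, 0 were called in each comparison. In high against sufficient livers it was 1 with no filter, 2 with DESeq2 and 0 to 1 with 1 library left out. In high against low livers it was 1 with no filter, 8 with DESeq2, 1 with the block, 6 without low 1 and sufficient 6, and 0 to 2 with 1 library left out, and in low against sufficient livers 7 with DESeq2 and 0 to 0 with 1 library left out. The causes were not tested. The removal of low 1 with sufficient 6 was chosen after seeing the data. Over 30 member values and 20 alternatives, 581 of 600 values moved by less than the spread between replicates and 19 moved by more, and Lpl and Hsd17b11 kept their sign in each. Cidea has the fewest reads of the 10 genes, 17 to 206 per library. The title numbers of the 3 diets share no replicate number, and the labels do not say that consecutive numbers belong together, so the block over them (1, 2, 4; 5, 6, 8; 9, 10, 12) is a trial and not a known pairing. Under it Lpl in high against sufficient livers was 1.48, against 1.45 without the block, and stayed called, Hsd17b11 in high against low livers lost its call and G0s2 gained one there.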

Other observations

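Fabp5, a fatty acid binding protein named here after its values were seen, had 126, 24.1 and 44.6 CPM in low 1, 5 and 9, 71.4, 43.2 and 92.8 CPM in sufficient 2, 6 and 10, and 234, 232 and 189 CPM in high 4, 8 and 12. High livers did not overlap either other diet, with a log2 fold change of 1.66 ± 0.50 in high against sufficient (SE, edgeR adjusted p = 0.345). The means were 219 ± 25.3 CPM in high and 69.1 ± 24.9 CPM in sufficient livers (SD, n = 3 each), and low 1, the library richest in Rn45s, was the highest of the low livers. The log2 fold change in high against low livers was 1.76, and 2.68 without low 1 (edgeR adjusted p = 0.0233).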
